A study of Saccharomyces cerevisiae with 12 samples.

Results

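The 10 genes described here, LCB1, LCB2, TSC10, SUR2, LAG1, LAC1, AUR1, CSG2, SUR1 and IPT1, encode the main line of sphingolipid synthesis in budding yeast. They were chosen by their gene symbol in the platform's annotation, each is read by 1 probe set, and they are 10 of 5449 yeast genes measured. SUR1, a mannosyltransferase subunit, was the only member to pass the test between the strains. It was 1.32-fold higher in the mutant without ethanol, and the rise it showed in the wild type in the ethanol medium was smaller in the mutant. SUR2 and IPT1, a hydroxylase and the last enzyme of the pathway, were lower in the ethanol medium in both strains.

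Total RNA came from cultures of BY4741, a laboratory haploid of a mating type that lacks working chromosomal copies of HIS3, LEU2, MET17 and URA3. Every culture carried a plasmid, p416-Tefmut2-SPT15 (the wild type here) or p416-Tefmut2-spt15-300 (the mutant here). SPT15 encodes the TATA-binding protein, which places RNA polymerases at promoters, and the labels do not say that its chromosomal copy was removed. Each strain was grown in YSC -URA medium of 2 kinds. The first held 20 g/L glucose and 0% ethanol, and the other, called the ethanol medium here, held 60 g/L glucose and 5% ethanol. Ethanol and glucose changed together and cannot be told apart in any comparison. There were 3 biological replicates in each of the 4 groups, with 1 Affymetrix yeast array per culture. One array, the mutant's replicate 2 with ethanol, is marked as an outlier in its title. It was left out, so 11 arrays were compared, of which 2 were of the mutant with ethanol.

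The 11 arrays correlated with each other at 0.943 or more across the yeast genes, and no array had a mean correlation under 0.993 with those of its own group. Median log2 intensity lay between 10.46 and 10.52. The array left out had a median of 9.89 and correlated with the others at 0.747 to 0.789, and 9 of the 10 members read lower there than on any other array, as did 4087 of 5449 genes. With that array included at full weight, the only call of a member that remained was the fall of SUR2 in the mutant in the ethanol medium. A sign of RNA quality, the log2 signal near the 3' end of 8 control genes minus that near the 5' end (median over them), was 0.240 to 0.266 in the mutant without ethanol. It was 0.310 to 0.359 in the wild type without ethanol, 0.361 to 0.435 in the wild type and 0.379 to 0.400 in the mutant in the ethanol medium. Its part in any difference between groups was not tested. SPT15 differed by -0.02 on the log2 scale between the strains without ethanol (limma adjusted p = 0.801) and by -0.05 in the ethanol medium (adjusted p = 0.376). Its probe set cannot be assumed to tell the 2 forms apart. URA3, carried on the plasmid, read 13.42 to 13.45 in the wild type and 13.52 to 13.54 in the mutant without ethanol. In the ethanol medium URA3 read 13.14 to 13.19 in the wild type and 13.33 to 13.36 in the mutant. The mutant's arrays were thus higher for URA3 in each medium, and the source of that difference was not tested. The 6 a-cell markers and the 4 alpha-cell markers were all detected in all 4 groups. Log2 summed intensity was 14.35 to 15.27 for the a-cell markers and 10.58 to 10.99 for the alpha-cell markers. Single genes were less clearly apart: SAG1, an alpha-cell marker, had group means of 9.90 to 10.06. BAR1, an a-cell marker, had a mean of 9.79 in the mutant in the ethanol medium. LEU2, although BY4741 has no working copy, read 7.88 to 8.23 without ethanol and 9.09 to 10.26 in the ethanol medium. HIS3, which also lacks one, read 11.74 to 11.88 without ethanol and 11.23 to 11.61 with it. MET17 read 7.49 to 8.01 and 7.67 to 8.04. The source of these signals was not tested.

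Sphingolipids are membrane lipids built on a long chain base instead of glycerol, and in yeast they are concentrated in the plasma membrane together with ergosterol. Synthesis begins in the endoplasmic reticulum, where serine palmitoyltransferase joins serine to a fatty acyl-CoA. The product is reduced to dihydrosphingosine, hydroxylated to phytosphingosine and joined to a very long chain fatty acid to give ceramide. In the Golgi apparatus ceramide receives inositol phosphate, then mannose, then a further inositol phosphate, which gives the most abundant complex sphingolipid. The Orm proteins restrain the first step, and kinases of the Pkh and Ypk families adjust that restraint.

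Levels below are log2 of the authors' normalised intensity, and differences are on the same log2 scale. Levels are compared between groups for 1 gene and not between genes, since probe sets differ in their response. Genes are said to have changed where limma's moderated linear model gave a p under 0.05 after Benjamini-Hochberg adjustment across all 5449. Total RNA was measured, so less of a transcript per cell and fewer cells holding it cannot be told apart. All 10 members read above the array background in every group, taken as the 95th percentile of probe sets for the fission yeast Schizosaccharomyces pombe, on average 7.24.

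**Figure D1:**
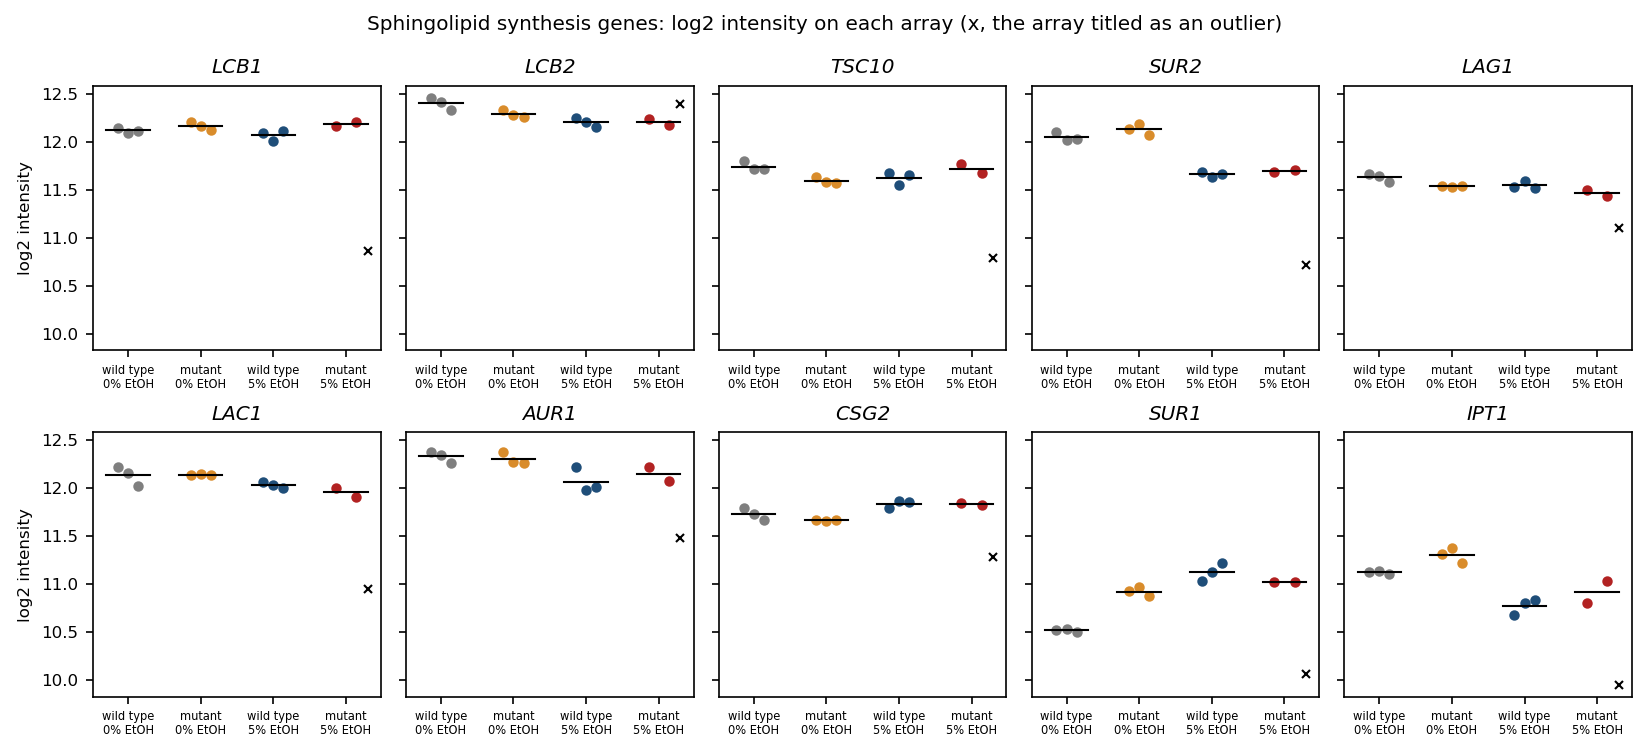
Log2 intensity (y axis) of the 10 genes on each array, by strain and medium (x axis). Points are the 11 arrays compared, bars are group means, and the cross is the array titled as an outlier, which lies below all points except for LCB2. SUR1 rises from 10.52 in the wild type without ethanol to 11.13 in the wild type in the ethanol medium, while SUR2 and IPT1 fall in the ethanol medium.

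LCB1 and LCB2 encode the catalytic core of serine palmitoyltransferase, the committed step. LCB1 read 12.15, 12.10 and 12.12 in the wild type without ethanol and 12.21, 12.17 and 12.13 in the mutant. In the ethanol medium it read 12.10, 12.01 and 12.11 in the wild type and 12.17 and 12.21 in the mutant. With the 4 groups ordered by mean, the arrays of each overlapped with those of the next, and LCB1 passed the test in 0 of the 5 comparisons. Its difference of 0.12 between the strains in the ethanol medium (95% interval 0.02 to 0.21, adjusted p = 0.0968) had an unadjusted p of 0.0206. There the mutant's arrays lay above the wild type's. LCB2 read 12.46, 12.42 and 12.34 in the wild type without ethanol, against 12.25, 12.21 and 12.16 in the ethanol medium. All of the former lay above all of the latter, and LCB2 fell by 0.20 (SE 0.043, adjusted p = 0.00278). In the mutant LCB2 read 12.33, 12.28 and 12.26 without ethanol and 12.24 and 12.18 with it, a difference of -0.08 (95% interval -0.19 to 0.03, adjusted p = 0.182). The 2 medium effects on LCB2 were not shown to differ (interaction 0.12, adjusted p = 0.331). Between the strains LCB2 differed by -0.11 without ethanol (adjusted p = 0.103) and by 0.01 with it (adjusted p = 0.937). Without ethanol the strains' arrays did not overlap, and that difference was called in 3 of 21 other settings.

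TSC10, the reductase that makes dihydrosphingosine, moved little. It read 11.80, 11.72 and 11.72 in the wild type without ethanol and 11.63, 11.58 and 11.57 in the mutant. These arrays did not overlap, but the difference of -0.15 missed the threshold (adjusted p = 0.0535) and passed it in 9 of 21 other settings. In the ethanol medium it read 11.67, 11.55 and 11.66 in the wild type and 11.77 and 11.67 in the mutant. The wild type's medium effect of -0.12 barely passed (adjusted p = 0.0488) and the mutant's of 0.12 barely missed (adjusted p = 0.0567). The wild type's call ended in 11 of 21 other settings, 8 of them without 1 array (adjusted p up to 0.165). The mutant's change, opposite in sign, was called in 6 of 21 other settings, among them aligned array medians (adjusted p = 0.0248). The interaction, 0.24, was not called (adjusted p = 0.121).

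SUR2 encodes the hydroxylase that turns dihydrosphingosine into phytosphingosine, the base of most yeast ceramides. It read 12.10, 12.02 and 12.03 in the wild type and 12.14, 12.19 and 12.07 in the mutant without ethanol. In the ethanol medium it read 11.69, 11.63 and 11.67 in the wild type and 11.68 and 11.71 in the mutant. All 5 arrays of the ethanol medium lay below all 6 without ethanol. The level was 1.31-fold lower in the wild type (log2 change -0.39, SE 0.041, adjusted p = 3.03e-05) and 1.35-fold lower in the mutant (-0.44, SE 0.045, adjusted p = 3.88e-05). Between the strains it differed by 0.08 without ethanol (adjusted p = 0.195) and by 0.03 with it (95% interval -0.07 to 0.14, adjusted p = 0.617).

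LAG1 and LAC1 encode the paired catalytic subunits of ceramide synthase. LAG1 read 11.67, 11.65 and 11.58 in the wild type and 11.54, 11.53 and 11.54 in the mutant without ethanol, and 11.53, 11.59 and 11.52 against 11.50 and 11.44 in the ethanol medium. The mutant's arrays lay below the wild type's in each medium, yet the differences of -0.10 and -0.08 were not called (adjusted p = 0.112 and 0.214). LAC1 read 12.23, 12.16 and 12.03 in the wild type without ethanol and 12.06, 12.04 and 12.002 with it, which overlapped. In the mutant LAC1 read 12.14, 12.15 and 12.14 without ethanol and 12.01 and 11.91 with it, and it fell by 0.19 (SE 0.057, adjusted p = 0.0175). That call depended on replicate 3 of the mutant's ethanol arrays, without which it ended (log2 change -0.14, adjusted p = 0.142). The wild type's change in LAC1 was -0.10 (adjusted p = 0.102), and the difference between the strains' medium effects was not called (interaction -0.08, adjusted p = 0.579).

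AUR1 encodes inositol phosphorylceramide synthase, the essential enzyme that carries ceramide into the complex sphingolipids and the target of aureobasidin A. It read 12.38, 12.35 and 12.27 in the wild type without ethanol and 12.22, 11.99 and 12.01 with it. The groups did not overlap, and AUR1 fell by 0.26 (SE 0.069, adjusted p = 0.00831). In the mutant it read 12.38, 12.28 and 12.26 without ethanol and 12.22 and 12.07 with it, a change of -0.16 that was not called (95% interval -0.33 to 0.01, adjusted p = 0.0993). It was called in 2 of 21 other settings, one of them without the wild type's replicate 1 with ethanol (adjusted p = 0.0426). Replicate spread was wide for AUR1 and IPT1, with residual SDs of 0.092 and 0.087 on the log2 scale, against 0.070 for the median gene and 0.037 to 0.063 for the other 8 members.

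CSG2 and SUR1 encode partners in the enzyme that adds mannose to inositol phosphorylceramide, CSG2 as the regulatory and SUR1 as a catalytic subunit. CSG2 read 11.80, 11.74 and 11.67 in the wild type without ethanol and 11.80, 11.87 and 11.86 with it. It rose by 0.11 (SE 0.038, adjusted p = 0.0319), and 5 of the 11 fits without 1 array ended that call (adjusted p up to 0.116). In the mutant CSG2 read 11.67, 11.66 and 11.67 without ethanol and 11.85 and 11.83 with it, and it rose by 0.17 (SE 0.043, adjusted p = 0.00601). The strains differed by -0.07 and 0.00 in CSG2 (adjusted p = 0.273 and 0.961).

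SUR1 had the widest range of group means among the members, 0.61 on the log2 scale. It read 10.53, 10.54 and 10.50 in the wild type without ethanol and 10.93, 10.97 and 10.87 in the mutant. The groups lay well apart, and SUR1 was higher in the mutant by 0.40 (SE 0.048, adjusted p = 0.000586). In the ethanol medium it read 11.04, 11.13 and 11.23 in the wild type and 11.03 and 11.03 in the mutant. There the mutant's arrays lay just below the wild type's, and the difference of -0.10 was not called (95% interval -0.22 to 0.02, adjusted p = 0.227).

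The wild type raised SUR1 by 0.61 in the ethanol medium (1.52-fold, SE 0.048, adjusted p = 5.26e-06). The mutant's change was 0.10 (95% interval -0.02 to 0.22, adjusted p = 0.121). The interaction, the mutant's medium effect minus that of the wild type, was -0.50 (SE 0.073, adjusted p = 0.0148), and SUR1 was the 1 member of 10 called for it. Among all genes 1.21% were called for the interaction, 0.385% with a positive and 0.826% with a negative value. Its call ended when 1 of 3 arrays was left out: the wild type's replicate 1 (adjusted p = 0.0514) or the mutant's replicate 2 (0.0573) without ethanol, or the mutant's replicate 3 with it (0.0638), while its size stayed between -0.55 and -0.46 over every alternative that kept the outlier array out. The call in the mutant without ethanol and the call in the wild type's medium response share the 3 wild type arrays without ethanol, where SUR1 was lowest.

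IPT1 encodes the enzyme that adds the last inositol phosphate and so makes mannosyl-diinositol phosphorylceramide. It read 11.13, 11.14 and 11.11 in the wild type and 11.32, 11.38 and 11.22 in the mutant without ethanol. The mutant's arrays were all higher, but the difference of 0.18 was not called (SE 0.066, adjusted p = 0.0999). It was called in 4 of 21 other settings, among them the fit of only the groups compared (adjusted p = 0.0321). With ethanol IPT1 read 10.68, 10.80 and 10.84 in the wild type and 10.80 and 11.03 in the mutant, which overlapped. The ethanol medium lowered it 1.28-fold in the wild type (log2 change -0.35, SE 0.066, adjusted p = 0.00117) and 1.31-fold in the mutant (-0.39, SE 0.073, adjusted p = 0.00141). SUR2 and IPT1 were each other's nearest member by pattern, with a root mean square difference of 0.054 over the 4 centred means.

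**Figure D2:**
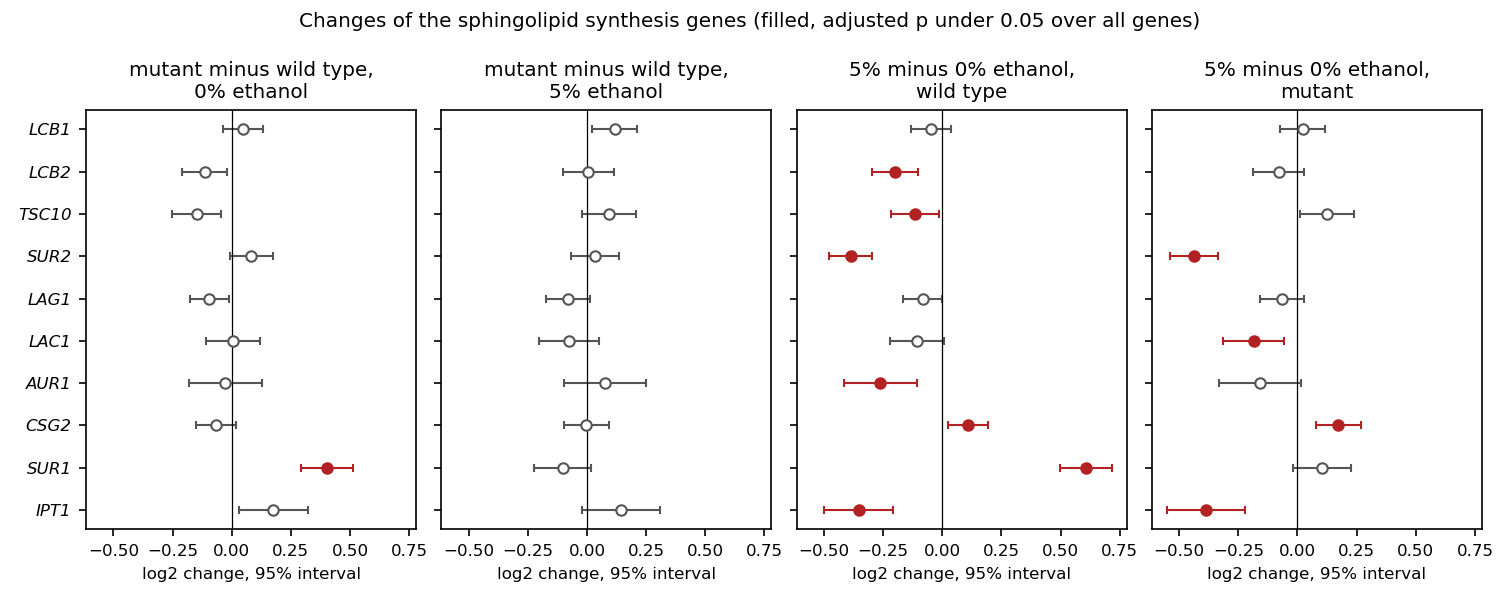
Log2 change (x axis) of each of the 10 genes (y axis) in the 4 comparisons between groups, with 95% intervals from limma. Filled points passed an adjusted p under 0.05: SUR1 alone in the strain comparison without ethanol, 0 genes in the strain comparison with ethanol, 7 in the wild type's medium response and 4 in the mutant's.

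Counted over the members, 1 of 10 rose and 0 fell in the mutant without ethanol, where 16.3% of all genes were called. Of these 890 genes 450 were higher and 440 lower, a split that became 491 and 274 with array medians aligned. The members' median difference was -0.01, against -0.03 over all genes, and 5 of the 10 members had an unadjusted p under 0.05. With ethanol limma called 0 of 10 between the strains, and 1 had an unadjusted p under 0.05. There 11.7% of all genes were called, and the medians were 0.02 for the members and -0.01 for all genes. In the wild type 2 members rose and 5 fell in the ethanol medium, against 60.8% of all genes called, 31.7% higher and 29% lower. In the mutant 1 rose and 3 fell, against 62.5% called, 33.8% higher and 28.7% lower. The members' median medium effect was -0.11 for the wild type and -0.07 for the mutant, and that of all genes was 0.01 and 0.02. In the wild type the share called was near that of all genes, so the count says little about these genes as a group. By size, SUR1's difference between the strains without ethanol exceeded that of 95.9% of genes and its interaction that of 98.4%, while its medium effect in the wild type exceeded that of 88.7%.

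The other genes of the pathway, 34 in a list of 7 roles, were read in the same fits. ORM2, one of the paired inhibitors of serine palmitoyltransferase, had the smallest p among them in both strain comparisons. It read 11.55, 11.50 and 11.51 in the wild type and 11.95, 11.97 and 11.92 in the mutant without ethanol, and 11.45, 11.42 and 11.44 against 11.89 and 11.96 in the ethanol medium. In each medium every mutant array lay above every wild type array. ORM2 was 1.35-fold higher in the mutant without ethanol (log2 difference 0.43, SE 0.033, adjusted p = 4.65e-05) and 1.41-fold higher in the ethanol medium (0.49, SE 0.037, adjusted p = 0.000284). With only the groups compared, the second call ended (adjusted p = 0.0567). The medium changed ORM2 by -0.08 in the wild type (adjusted p = 0.0564) and by -0.02 in the mutant (adjusted p = 0.677). Its paralog ORM1 differed between the strains by -0.13 without ethanol and 0.00 with it (adjusted p = 0.0893 and 0.958), and fell in the ethanol medium by 0.34 in the wild type (adjusted p = 0.000144) and by 0.22 in the mutant (adjusted p = 0.00404).

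In all, 4 of the 34 rose and 1 fell in the mutant without ethanol, against 8.26% of all genes higher and 8.07% lower. Besides ORM2, they were YPC1, a ceramidase (0.37, adjusted p = 0.0185), YSR3, a phosphatase of long chain base phosphates (0.15, adjusted p = 0.0466), and DPL1, the lyase that breaks these phosphates down (0.12, adjusted p = 0.0474). LCB5, a kinase of long chain bases, fell by 0.17 (adjusted p = 0.0202). The calls of YSR3 and DPL1 ended in 12 of 20 and 13 of 21 other settings. Those of YPC1 and LCB5 each ended in 4 of the 11 fits without 1 array, with adjusted p up to 0.0751 and 0.0863. ORM2 kept its call in every fit without 1 array, with adjusted p of 0.000644 or less.

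With ethanol 3 of the 34 were higher and 2 lower in the mutant, against 5.73% of all genes higher and 5.98% lower. ISC1, which splits complex sphingolipids back to ceramide, was higher by 0.28 (adjusted p = 0.00567), and YSR3 by 0.29 (adjusted p = 0.0106). YDC1, a ceramidase of dihydroceramide, differed by -0.24 (adjusted p = 0.0272), and TSC13, the last enzyme of the very long chain fatty acid elongation cycle, differed by -0.22 (adjusted p = 0.0499). Without the mutant's replicate 3 in that medium, ISC1, YSR3, YDC1 and TSC13 lost their calls (adjusted p = 0.0572, 0.0830, 0.158 and 0.258), and so they did with only the groups compared. The call of YDC1 ended as well when the wild type's replicate 2 (0.0771) or the mutant's replicate 1 (0.0608) in that medium was left out. TSC13 kept its call in 1 of the 11 fits without 1 array. Limma called 0 of the 34 for the interaction, and 8 had an unadjusted p under 0.05.

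**Figure D3:**
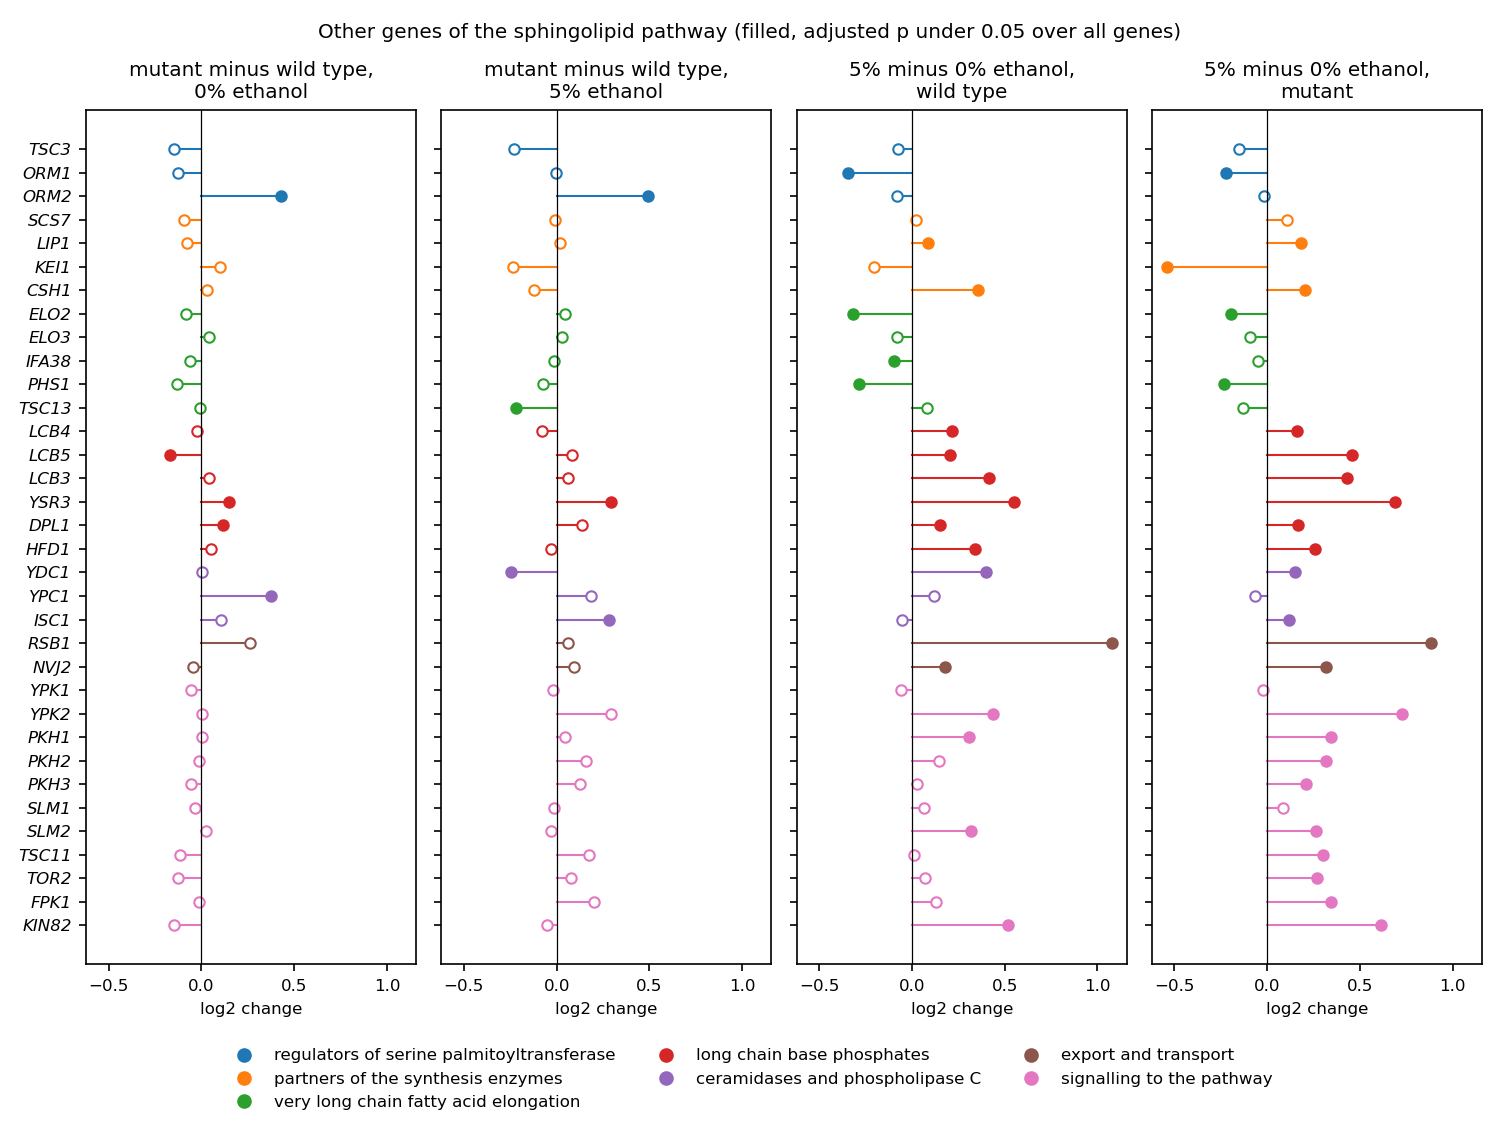
Log2 change (x axis) of the 34 other genes of the pathway (y axis), coloured by role, in the 4 comparisons between groups. Filled points passed an adjusted p under 0.05. ORM2 stands at 0.43 and 0.49 in the strain comparisons, and the 6 genes of long chain base phosphates are all filled and to the right in both medium responses.

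In the wild type's medium response 15 of the 34 rose and 4 fell, against 31.7% of all genes higher and 29% lower. In the mutant's 21 rose and 4 fell, against 33.8% higher and 28.7% lower. The total called, 19 and 25 of 34, stood against 60.8% and 62.5% of all genes, so these totals say little about the list. By direction, a larger share of the list rose and a smaller share fell than among all genes, which was not tested. Its medians were 0.10 and 0.18, against 0.01 and 0.02 for all genes. The 6 genes listed under long chain base phosphates all rose in each strain, by 0.15 to 0.55 in the wild type and by 0.16 to 0.69 in the mutant. These phosphates are signalling and breakdown intermediates, made by the kinases Lcb4 and Lcb5, returned to the free base by the phosphatases Lcb3 and Ysr3, and destroyed by Dpl1. The other gene of the 6, HFD1, encodes a fatty aldehyde dehydrogenase that acts on the product of Dpl1, and it rose by 0.34 in the wild type (adjusted p = 0.000415) and by 0.26 in the mutant (adjusted p = 0.00415). YSR3 rose from 8.98, 8.89 and 8.95 to 9.47, 9.43 and 9.56 in the wild type (1.46-fold, adjusted p = 5.78e-06). In the mutant it rose from 9.09, 9.13 and 9.05 to 9.74 and 9.81 (1.61-fold, adjusted p = 3.65e-06). No array of YSR3 in the ethanol medium overlapped with one without ethanol. LCB3 rose 1.33-fold in the wild type (adjusted p = 0.000118) and 1.35-fold in the mutant (adjusted p = 0.000215), and LCB5 rose 1.37-fold in the mutant (adjusted p = 2.59e-05).

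RSB1, a membrane protein that moves long chain bases out of the cell's inner leaflet, had the largest medium effect of the list in either strain. It read 7.17, 7.30 and 7.58 in the wild type and 7.49, 7.71 and 7.62 in the mutant without ethanol, and 8.29, 8.55 and 8.43 against 8.36 and 8.62 in the ethanol medium. In the wild type without ethanol 2 of 3 arrays lay at or below the background percentile, so the measured 2.11-fold rise there (log2 change 1.08, SE 0.11, adjusted p = 3.13e-05) is uncertain in size. The mutant's rise was 1.84-fold (0.88, SE 0.13, adjusted p = 0.000285). NVJ2, which aids the passage of ceramide out of the endoplasmic reticulum, rose by 0.18 in the wild type (adjusted p = 0.00606) and by 0.32 in the mutant (adjusted p = 0.000459).

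CSH1, the paralog of SUR1 and the other catalytic mannosyltransferase subunit, rose in the ethanol medium too. It read 10.01, 10.01 and 9.95 in the wild type and 9.99, 10.03 and 10.04 in the mutant without ethanol, which overlapped. With ethanol it read 10.33, 10.43 and 10.28 in the wild type and 10.22 and 10.23 in the mutant. The rise was 0.36 in the wild type (adjusted p = 6.26e-05) and 0.20 in the mutant (adjusted p = 0.00383). Without ethanol the strains differed by 0.03 in CSH1 (adjusted p = 0.666), against 0.40 in SUR1. In the ethanol medium they differed by -0.12 in CSH1 (adjusted p = 0.114) and by -0.10 in SUR1, and neither was called. There the mutant's arrays lay below the wild type's for both genes. Whether the paralogs' strain effects differ was not tested.

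KEI1, the partner subunit of AUR1, fell 1.45-fold in the mutant in the ethanol medium (log2 change -0.54, SE 0.10, adjusted p = 0.00161). The wild type's change was -0.20 (adjusted p = 0.0834), and the medium effects were not shown to differ (interaction -0.34, adjusted p = 0.232). In the wild type KEI1 was spread from 10.99 to 11.42 in the ethanol medium, the widest of the 4 groups. Of 5 genes of very long chain fatty acid elongation, 3 fell and 0 rose in the wild type, where 29% of all genes fell, and 2 fell and 0 rose in the mutant, where 28.7% did. ELO2, the elongase for the shorter of these chains, fell by 0.32 in the wild type (adjusted p = 5.24e-05) and by 0.19 in the mutant (adjusted p = 0.00237). Among 11 kinases and other signalling genes, 4 rose in the wild type, where 31.7% of all genes did, 9 rose in the mutant, where 33.8% did, and 0 fell in either. PKH1, a kinase that activates Ypk1 and Ypk2, rose 1.24-fold in the wild type and 1.27-fold in the mutant (adjusted p = 6.53e-05 and 8.05e-05). KIN82, a kinase related to the activators of lipid flippases, rose 1.53-fold in the mutant (adjusted p = 0.000172). The larger count in the mutant was not tested as a difference, and limma called 0 of these 11 genes for the interaction, where 1 had an unadjusted p under 0.05. KIN82 also rose in the wild type (1.43-fold, adjusted p = 0.000198).

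**Figure D4:**
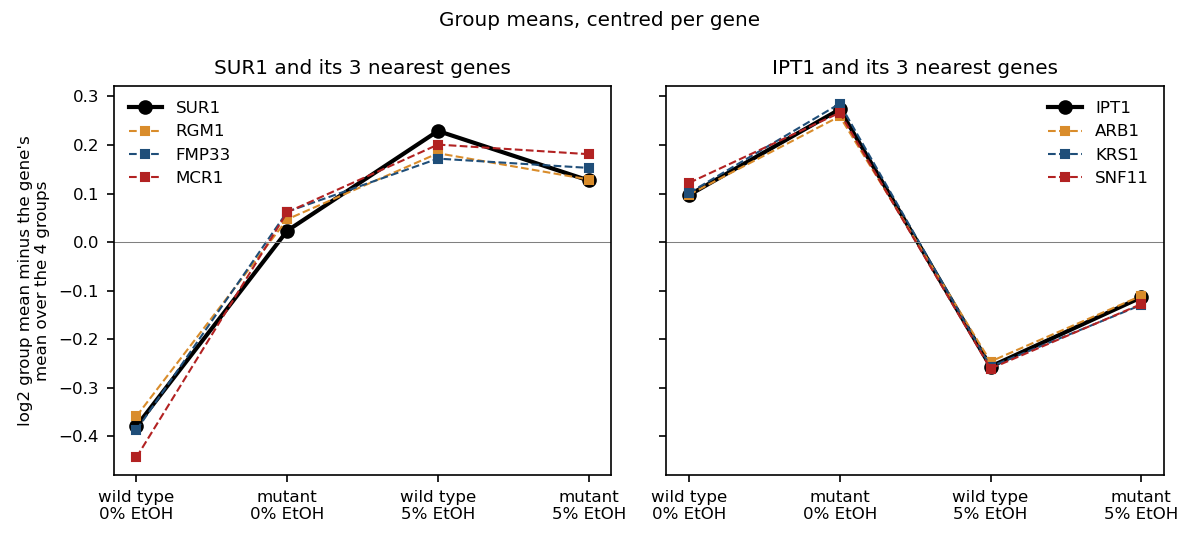
Group means on the log2 scale, each gene centred on its own mean over the 4 groups (y axis), for SUR1 and IPT1 and the 3 genes nearest to each, by group (x axis). SUR1 and its neighbours are lowest in the wild type without ethanol, and IPT1 and its neighbours are highest in the mutant without ethanol.

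SUR1 and IPT1 had the widest ranges of group means among the members, and the genes with the nearest pattern were sought by the root mean square difference of the 4 centred means. For SUR1 these were RGM1, a zinc finger protein, at 0.028, FMP33, a mitochondrial protein, at 0.037, and MCR1, a mitochondrial NADH-cytochrome b5 reductase, at 0.048. MCR1 rose from 11.99 in the wild type without ethanol to 12.49 in the mutant and to 12.63 and 12.61 in the ethanol medium. RGM1 was the faintest of them, with a mean of 7.60 in the wild type without ethanol, near the background percentile. MCR1 was called for the interaction (-0.52, adjusted p = 0.00292), while RGM1 and FMP33 were not (-0.46 and -0.47, adjusted p = 0.135 and 0.148). For IPT1 the nearest were ARB1, an ATPase of ribosome assembly, at 0.009, KRS1, the lysyl-tRNA synthetase, at 0.010, and SNF11, a subunit of the SWI/SNF chromatin remodeller, at 0.015. These distances were computed over 4 group means and describe likeness only.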

How the data were processed

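Total RNA of 12 cultures was measured on 12 arrays. The deposited table holds 1 intensity for each of 10928 probe sets and array, on a linear scale, made by the authors with RMA per the submitters' processing notes. RMA subtracts background, gives arrays 1 distribution and combines a probe set's probes. Its version is not given in the sources used here. Log2 was taken with no pseudocount. The platform's annotation names 7245 probe sets, of which 5498 matched 1 gene of the RefSeq R64 gene table. Where several probe sets read 1 gene (47 genes), that of highest mean was kept, leaving 5449 genes. Another 1746 probe sets, taken as S. pombe, gave the background. Limma 3.58.1 in R 4.3.3 (lmFit, eBayes) fitted 1 mean per group to 11 arrays, with 7 residual and 2.73 prior degrees of freedom. The fit was tested on simulated data for the strain effect without ethanol only, with changes larger than most given here. The other comparisons and the interaction were not simulated. The number of arrays limits the precision.

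The members and the gene lists were chosen with earlier results of these data known. All members were named, and the 3 genes nearest in pattern to the 2 members of widest range. Of the other pathway genes, at most 8 called per comparison were chosen by smallest p, and some of these were also given in other comparisons. HFD1 was given outside this rule, as the other gene of its role. Alternatives added or weighted the outlier array, added a replicate block, changed the normalization, the offset (50 added), the filter (lowest 25%), the variance prior, the arrays fitted or the probe set rule, or left out 1 array. Sequences were not used here.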

Additional observations from a re-analysis of the deposited data

Results flagged for a closer look

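SUR1 responded differently to the ethanol medium in the strains: the interaction was -0.50 on the log2 scale (adjusted p = 0.0148), from a rise of 0.61 in the wild type (n = 3 against 3) and a change of 0.10 in the mutant (n = 2 against 3). Its call ended without any 1 of 3 arrays, as given above.

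The array titled as an outlier, which entered no comparison, read RSB1 at 10.33 and YSR3 at 10.04, above the highest of the other 11 arrays (8.62 and 9.81). The S. pombe 95th percentile was 10.78 on that array, against 7.11 to 7.37 on the others, so both values lie within its background.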

How the results depend on the processing

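Of the 50 log2 changes of the members, recomputed in up to 21 other settings, 975 values kept their call or lack of one, 31 lost a call, 33 gained one and 1 reversed. SUR1 without ethanol and in the wild type's medium response kept its calls in all settings but that of all 12 arrays. The same held for SUR2 in the wild type's and IPT1 in both medium responses, LCB2 and AUR1 in the wild type and CSG2 in the mutant. SUR2 in the mutant kept its call with all 12 arrays too, where the outlier array's value of SUR2, 10.72, lay within that array's background (10.78). The cause of the losses with all 12 arrays was not tested. There the members called were 0 for the strain effect without ethanol, 0 for the wild type's medium effect, 1 for the mutant's and 0 for the interaction. All genes called were then 13, 0 (strain, ethanol medium), 408, 744 and 3. The medium effect in the mutant turned from 0.17 to -0.013 for CSG2, and to -0.069 for LCB5, -0.20 for NVJ2 and -0.043 for PKH1, none of them called. With array weights, 7 members were called for the strain effect without ethanol and 2 for the interaction, with 2729 and 486 genes in all. There the outlier array weighed 0.0041 and replicate 2 of the mutant without ethanol 10.6.

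For the strain effect without ethanol, 3 members were called with the replicate block, 3 with repeated quantile normalization, 2 without the lowest 25% of genes, 2 with a variance trend and robust fitting and 3 with only the groups compared, against 1. The last setting called 6 genes in all for the strain effect in the ethanol medium, against 638. Leaving out 1 array gave 1 to 3 members (454 to 974 genes) for the strain effect without ethanol, 0 to 0 (72 to 1326) with ethanol, 5 to 7 (2932 to 3339) for the wild type's medium effect, 4 to 5 (2535 to 3484) for the mutant's and 0 to 1 (16 to 448) for the interaction. The lowest counts of genes came without replicate 2 of the mutant without ethanol (454 and 16) and without the mutant's replicate 3 with ethanol (72), and the highest (1326 and 448) without the wild type's replicate 3 with ethanol. Leaving out 1 of the mutant's ethanol arrays leaves 1, which is assumed to vary like the other groups. Same-numbered arrays of different groups deviated together at r over 0.1 in 11 of 15 pairs (range -0.25 to 0.71). Their median r was 0.18, against -0.13 for pairs of different numbers, and 6 of 11 arrays correlated best with their own number. Deviations were taken from each group's own mean, so those of a group offset each other and the 2 medians are not independent. For the 2 ethanol arrays of the mutant, r with any array of another group differs in sign only. The series' design text states no block, so the main fit held none, and the block is given as an alternative. With the replicate block AUR1 and TSC10 were called in the mutant's medium response (log2 change -0.18 and 0.10, adjusted p = 0.0115 and 0.0491). The fit of only the groups compared gives no value for the interaction, which needs all 4 groups.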
